A study of Mus musculus with 6 samples.

Results

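Transferrin, encoded by Trf, is the iron carrier of plasma and tissue fluid, and Trf was the gene with the largest rise in the lungs of Foxp mutant mouse embryos. It was examined here with 9 other genes of iron handling, named for their known function: the transferrin receptors Tfrc and Tfr2, the importer Slc11a2, the ferritin heavy chain Fth1, the exporter Slc40a1, the ferroxidases Heph and Cp, the hepcidin gene Hamp and the iron regulatory protein gene Ireb2. Each of the 10 genes had 1 feature, a set of probes summarised as 1 value, that was annotated to that gene alone, so 10 of the 19946 genes tested are described. Trf was selected on its difference between mutant and control lungs, the largest rise measured, so that difference is given as a description without a test.

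Cells take up iron when iron-loaded transferrin binds its receptor and is drawn into endosomes, where iron is released and carried into the cytosol by Slc11a2. Iron not used at once is stored in ferritin, and surplus iron leaves through ferroportin (Slc40a1), helped by a ferroxidase and opposed by hepcidin. The iron regulatory proteins bind ferritin and receptor messages, so that storage falls and uptake rises when iron is short. The liver is the main source of transferrin in the body, but other tissues make it as well.

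Whole lungs were profiled at E14.5, midway through branching of the airways, on 6 single-colour Affymetrix arrays, with 3 control and 3 mutant embryos. Controls had the genotype Shh-Cre. Mutants carried Shh-cre and homozygous floxed alleles written Foxp1flox/flox, Foxp1flox/flox and Foxp4flox/flox, where the series title has Foxp1/2/4 and so implies Foxp2 in the place of the second Foxp1. Both groups carried the Cre, both were a mix of C57BL/6 and 129X1, and the series describes its samples as embryos. Cre expressed from Shh acts in the endoderm that forms the lung epithelium, while the lungs also held mesenchyme, vessels and blood in which the genes were not targeted. In such bulk RNA, fewer cells of a type cannot be told apart from less RNA per cell. Over the 35556 features, correlations between arrays were at least 0.994 within controls and at least 0.992 within mutants, and 0.987 to 0.991 across the groups. Foxp2 was lower by a log2 difference of -0.95 and Foxp4 by -0.64 (limma adjusted p 4.75e-05 and 0.00591). Foxp1 was at -0.31 and did not pass (adjusted p = 0.0661). With single arrays left out, its adjusted p ran from 0.0428, without mutant 3, to 0.218. The lung epithelial markers Nkx2-1 and Epcam read at least 8.98 and 9.58 in every lung, although both were lower in mutants (-0.88 and -0.33, adjusted p 0.0026 and 0.0384). The call of Epcam ended with each array other than mutant 3 left out (adjusted p up to 0.147). Sftpc, the surfactant gene of the distal lung epithelium, read between 11.35 and 11.41 in controls and between 5.75 and 5.86 in mutants, below the 95th percentile of genes taken as silent in lung. Mutant 1 stood apart in heart muscle genes, whose list median was 1.10 above the control mean in that lung and at -0.16 and -0.15 relative to it in mutants 2 and 3. By limma 0 of the 14 heart genes were called, also at an unadjusted p under 0.05. The 2 of smallest p were Actc1, the cardiac actin (-1.42 ± 0.65, SE, adjusted p = 0.278), and Tnni1, a slow troponin (0.53 ± 0.34, adjusted p = 0.466).

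Values of Trf were 8.33, 8.09 and 7.90 in the control lungs, in the order of their replicate numbers, against 11.76, 11.45 and 11.64 in the mutant lungs, on the log2 scale on which the authors deposited their values. Every mutant lung lay more than 3 log2 units above the highest control, and the spread within each group was small beside that gap. The group means were 8.11 ± 0.22 (SD, n = 3) and 11.62 ± 0.15, a difference of 3.51 or 11.4-fold. The difference ran from 3.41 without control 3 to 3.62 without control 1, and it was 3.44 without mutant 1, the lung with the high heart muscle genes. With the heart muscle median as a covariate it was 3.46.

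**Figure D1:**
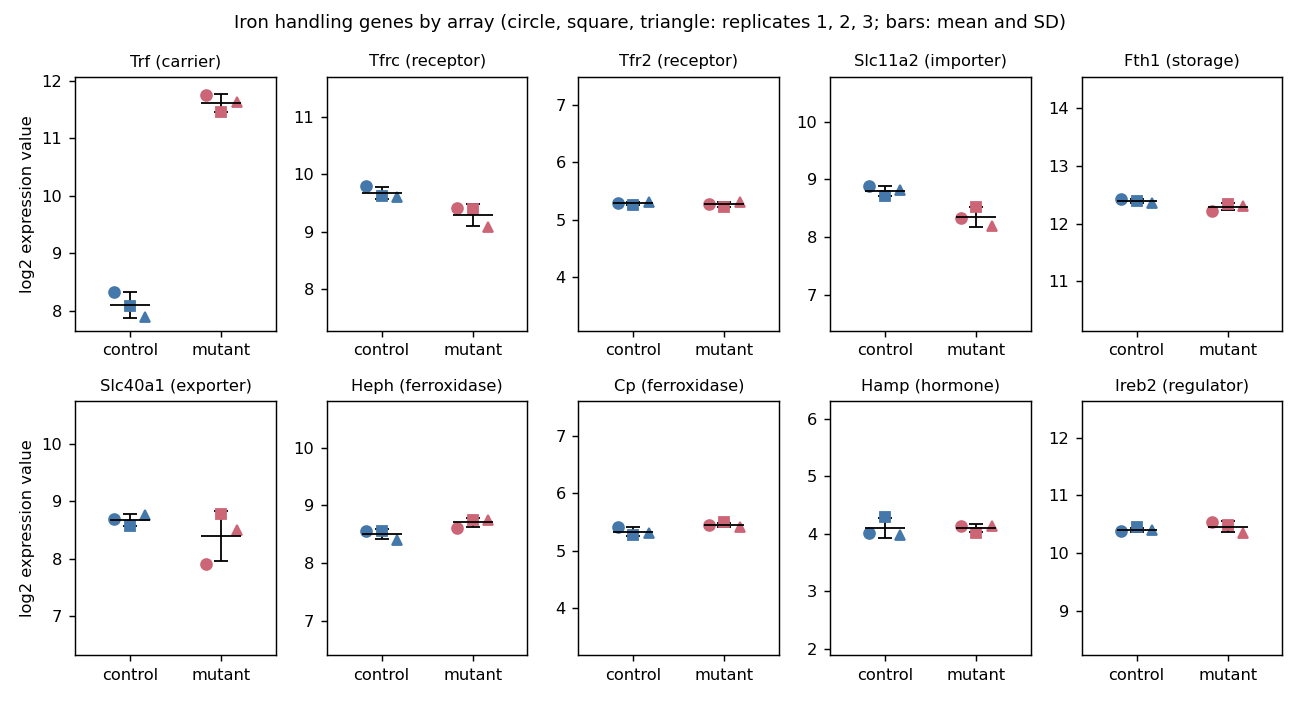
Log2 expression value of the 10 iron handling genes in each of 3 control and 3 mutant lungs, each panel spanning the same range of log2 units, with points for single arrays and bars for the group mean and SD. Trf stands apart in the mutants, with 8.11 against 11.62, while the other 9 genes differ by no more than 0.46.

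The rise of Trf came with a called rise in none of the other 9 genes. By limma's moderated test with Benjamini-Hochberg adjustment over all 19946 genes, 0 of the 9 were higher in mutants, 1 was lower and 8 did not pass a threshold of 0.05. At an unadjusted p under 0.05, 1 was higher and 2 were lower. Of all 19946 genes, 3960 had an unadjusted p under 0.05, which is the background for this and every later unadjusted count. After adjustment the test called 7.66% of all genes, with 3.84% higher and 3.83% lower, and 1 call among 9 genes is 11.1%. The median difference of the 9 was -0.02, against -0.0055 over all genes tested. The highest upper limit among their 95% intervals was 0.37, that of Heph, or 1.29-fold, so a rise anywhere near that of Trf lay outside the interval of each of them.

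**Figure D2:**
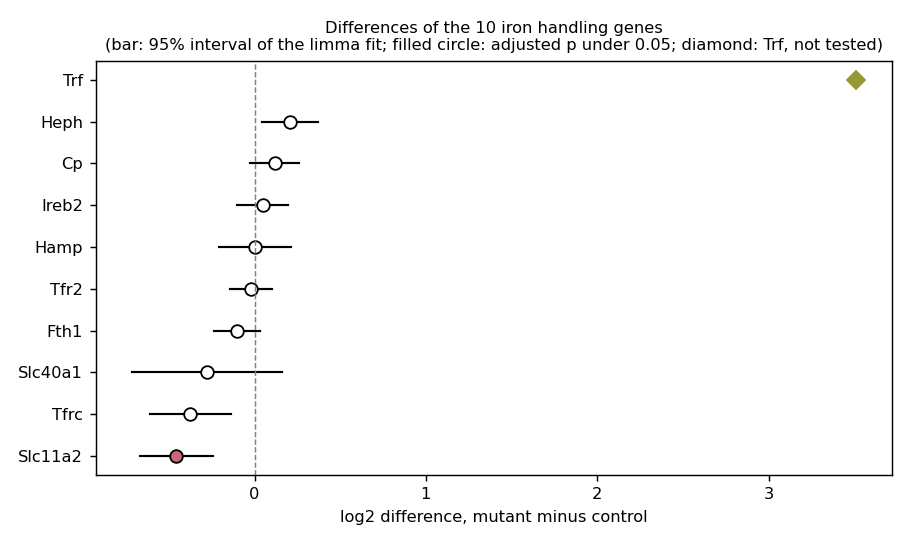
Log2 difference, mutant minus control, of the 10 genes with the 95% interval of the limma fit. Slc11a2 at -0.46 is the only filled circle (adjusted p under 0.05), and Trf at 3.51 is shown without an interval because it was chosen for this difference.

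Neither transferrin receptor was called in either direction. Tfrc, the receptor by which most cells take up transferrin, read 9.80, 9.62 and 9.60 in controls against 9.41, 9.40 and 9.08 in mutants. All 3 mutant values lay below the controls, with mutant 3 lowest. The difference of -0.37 ± 0.10 (SE, n = 3 per group; 95% interval -0.61 to -0.14) did not pass (adjusted p = 0.0721). With single arrays left out it ran from -0.43 without mutant 1 to -0.26 without mutant 3, with adjusted p between 0.0599 and 0.231, and it passed in a fit with array weights (adjusted p = 0.0265). Tfr2, the iron-sensing receptor of liver and red cell precursors, read between 5.26 and 5.31 in controls and between 5.23 and 5.30 in mutants. The groups overlapped, with a difference of -0.02 ± 0.05 (SE, adjusted p = 0.885).

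Tfr2 was at a level where a change would be hard to see. Olfactory and vomeronasal receptor genes, taken as silent in lung, had means with a median of 4.40 and a 95th percentile of 5.89 over 1194 genes. Features differ in background, so this is a rough mark, but Tfr2, Cp and Hamp lay below it in both groups and the other 6 genes besides Trf lay above it. A fall is harder to see than a rise near this level, although the red cell marker Rhag, also under the mark, was called lower.

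Slc11a2 (DMT1), which moves iron out of endosomes and into cells, was the member that fell. It read 8.89, 8.71 and 8.81 in controls against 8.33, 8.52 and 8.19 in mutants, with no overlap between the groups. The difference was -0.46 ± 0.09 (SE), or 1.37-fold lower (adjusted p = 0.0217). The call did not hold without control 1, control 2, control 3 or mutant 3 (adjusted p 0.0958, 0.0505, 0.092 and 0.0555), nor when all features were tested (0.0719), although the difference stayed between -0.54 and -0.38 with each array left out in turn. Its message exists in forms with and without an iron responsive element, which 1 feature per gene does not separate.

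Fth1, the ferritin subunit that oxidises iron for storage, was high in every lung. It read 12.42, 12.39 and 12.36 in controls against 12.22, 12.35 and 12.30 in mutants. The mutant values lay just below the controls, by a mean of -0.10 ± 0.06 (SE), with a 95% interval of -0.24 to 0.03 that leaves room for no more than a small change on this scale (adjusted p = 0.39). Processed copies of ferritin genes share sequence with Fth1, so its feature may read more than 1 locus. The arrays read RNA, so the level of ferritin protein was not measured. Ftl1, the light chain that completes the ferritin shell, was at -0.07 ± 0.06 (adjusted p = 0.618).

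Slc40a1, the ferroportin through which iron leaves cells, varied most among the mutants. It read 8.68, 8.56 and 8.76 in controls against 7.91, 8.77 and 8.49 in mutants. Mutant 1 was lowest, while mutant 2 lay at the top of the control range. The difference of -0.28 ± 0.19 (SE) missed the threshold (adjusted p = 0.503), and with mutant 1 left out it was -0.04 (adjusted p = 0.876). Mutant 1 was also the lung with the highest median of heart muscle genes and the lowest median of lung epithelial genes. In the epithelial list 10 of 14 genes fell and 4 did not pass. The largest falls were of Sftpc (-5.58 ± 0.06, SE), of the airway factor Sox2 (-2.08 ± 0.17), of the keratin gene Krt8 (-1.03 ± 0.13) and of Nkx2-1, at adjusted p of 0.00294 or less. The list median was at -0.74 in mutant 1 and at -0.41 and -0.32 in mutants 2 and 3. Krt8 and Nkx2-1 were lowest in mutant 1, whereas Sftpc and Sox2 were highest there among the mutants. The part of these tissues in the Slc40a1 values was not tested.

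The ferroxidases, which oxidise exported iron so that transferrin can bind it, both had a small positive difference. Heph, the membrane-bound form, read 8.56, 8.55 and 8.39 in controls against 8.62, 8.75 and 8.75 in mutants. The mutants lay above the controls by 0.21 ± 0.07 (SE), and this did not pass (adjusted p = 0.143). Cp, the secreted form that circulates with transferrin as a liver product, read 5.42, 5.28 and 5.30 in controls against 5.44, 5.49 and 5.41 in mutants. Its groups overlapped, and its difference of 0.12 ± 0.06 did not pass either (adjusted p = 0.35).

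The regulators overlapped between the groups. Hamp, the hormone that triggers loss of ferroportin from the cell surface, read 4.02, 4.29 and 3.98 in controls against 4.14, 4.02 and 4.13 in mutants, below the level of most receptor genes taken as silent. Ireb2, an iron regulatory protein controlled through its breakdown, read 10.38, 10.45 and 10.39 in controls against 10.53, 10.48 and 10.35 in mutants. Their differences were 0.003 ± 0.09 and 0.05 ± 0.06 (SE, adjusted p 0.991 and 0.775), and the 95% interval of Ireb2 ran from -0.10 to 0.20.

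Groups that did not overlap numbered 3 with lower mutants (Tfrc, Slc11a2 and Fth1) and 1 with higher mutants (Heph) among the 9 genes. Over all genes tested, 25.9% did not overlap, 12.6% with lower and 13.4% with higher mutants. By difference the order of the 9 ran from Slc11a2 and Tfrc through Slc40a1, Fth1, Tfr2, Hamp, Ireb2 and Cp to Heph, and the 95% intervals of neighbours in this order overlapped.

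Beyond these members, 102 of 109 genes in 7 lists of iron and haem biology were measured. Of the 102, 4 were higher in mutants, 10 were lower and 88 did not pass, which is 3.92% higher and 9.8% lower against 3.84% and 3.83% over all genes. The median difference was -0.01. The 4 rises became 2 without control 1, control 2 or mutant 1 and 1 without control 3, and the 10 falls became 5 without control 3. Of the 14 calls, 6 held with each of the 6 arrays left out in turn. Those were the falls of Alas2, Cubn, Slc48a1, Steap4 and Slc39a8 and the rise of Lrp2.

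**Figure D3:**
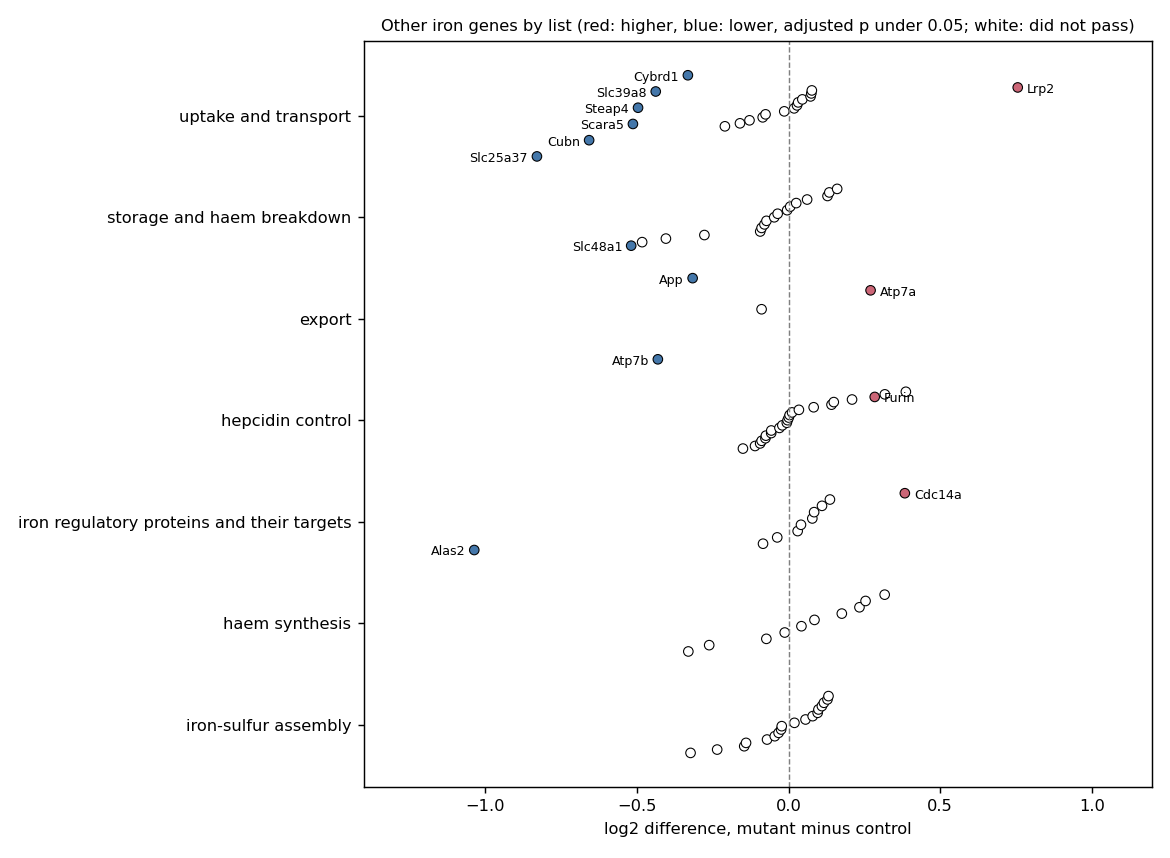
Log2 difference, mutant minus control, of the other iron genes by list, with genes that passed an adjusted p of 0.05 coloured and named. In uptake and transport 6 of 20 genes are lower and 1 is higher, in export 2 of 4 are lower and 1 is higher, and haem synthesis and iron-sulfur assembly hold 0 calls.

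Uptake and transport, the list with the largest number of calls, held 7: 6 of 20 genes fell, 1 rose and 13 did not pass (median -0.08). Cubn, which encodes cubilin, an endocytic receptor that binds transferrin among other ligands, averaged 7.02 ± 0.02 (SD, n = 3) in controls against 6.19, 6.62 and 6.29 in the mutants. It was lower by a difference of -0.66 ± 0.10 (SE, adjusted p = 0.00781). Lrp2, megalin, the partner that takes cubilin into cells, went the other way, from 6.71, 6.71 and 6.72 to 7.58, 7.47 and 7.35. Its difference was 0.76 ± 0.07 (adjusted p = 0.000544), so the pair moved in opposite directions in each of the 3 mutants.

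Importers and reductases of iron not bound to transferrin were among the falls. Slc39a8, a zinc and iron importer, was at -0.44 ± 0.07 (SE), from 8.31 ± 0.08 (SD, n = 3) to 7.87 ± 0.09 (adjusted p = 0.00781). The metalloreductase Steap4 was at -0.50 ± 0.08 (adjusted p = 0.00881), with 6.53, 6.32 and 6.28 in controls against 5.84, 5.84 and 5.97 in mutants. The ferritin receptor Scara5 (-0.51) and the duodenal reductase Cybrd1 (-0.33) passed as well. Scara5 did not pass without control 2, control 3 or mutant 3 (adjusted p up to 0.0697), and Cybrd1 did not without control 1, control 3 or mutant 1 (adjusted p up to 0.0994). Slc39a14, the importer closest in kind to Slc39a8, was at 0.03 (adjusted p = 0.906), and the endosomal reductase Steap3, which acts on iron released from transferrin, was at 0.07 (adjusted p = 0.629).

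Relatives of transferrin showed no such gap between the groups. Ltf, lactoferrin of secretions and neutrophils, read 5.13, 5.31 and 5.36 in controls against 5.31, 5.13 and 5.41 in mutants. Its mean lay near the level of genes taken as silent in both groups. Meltf, the membrane-anchored melanotransferrin, read 6.09, 6.19 and 6.05 in controls against 6.10, 5.93 and 6.07 in mutants. Both overlapped between the groups (adjusted p 0.951 and 0.637), while the groups of Trf lay wholly apart.

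The largest falls among these iron genes were of genes known from red cell precursors. Alas2, which starts haem synthesis in those cells and carries an iron responsive element, read 9.62, 10.34 and 9.84 in controls against 8.94, 8.88 and 8.88 in mutants, a difference of -1.04 ± 0.16 (SE, adjusted p = 0.00674). Slc25a37, mitoferrin, which brings iron into their mitochondria, read 9.55, 10.28 and 9.76 in controls against 9.03 ± 0.04 (SD, n = 3) in mutants, at -0.83 ± 0.16 (adjusted p = 0.0196). It did not pass without control 3 or mutant 3 (adjusted p 0.0603 and 0.0623). Both genes were highest in control 2 and nearly equal across the mutants.

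Part of the red cell marker list fell beside these 2 genes. Of 10 measured markers, 4 fell and 6 did not pass, with list medians of -0.14, 0.20 and -0.08 in controls and -0.16, -0.26 and -0.47 in mutants relative to the control mean. The anion exchanger Slc4a1 (-1.09 ± 0.16, adjusted p = 0.00507) and the membrane skeleton gene Epb42 (-0.43) fell. Rhag (-0.34), which lay below the 95th percentile of silent genes in both groups, fell too. The embryonic globins Hbb-y (-0.14), Hba-x (-0.15) and Hbb-bh1 (0.21) did not pass. Alas2 is itself in that list. Tfrc is abundant in red cell precursors too, and the part of red cells in the values of Tfrc, Slc11a2, Alas2 and Slc25a37 was not tested.

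Haem synthesis apart from Alas2 was not called in either direction. By limma 0 of its 10 genes passed, and at an unadjusted p under 0.05 there were 3 higher and 2 lower. Fech, which inserts iron into haem, was at -0.33 ± 0.08 (adjusted p = 0.0518) and Cpox at 0.32 ± 0.09 (adjusted p = 0.0921). Iron-sulfur assembly, which builds the cofactors of respiration, also had 0 of 18 genes called, with 0 higher and 2 lower at an unadjusted p under 0.05. Its scaffold gene Nfu1 was at -0.32 and Nubp1 at -0.24 (adjusted p 0.159 and 0.245).

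In storage and haem breakdown, 1 of 17 genes fell, 0 rose and 16 did not pass, with 0 higher and 3 lower at an unadjusted p under 0.05. Slc48a1, a haem transporter of lysosomes, was at -0.52 ± 0.07 (SE), with 9.80, 9.83 and 9.78 in controls against 9.29, 9.15 and 9.40 in mutants (adjusted p = 0.00402). Hmox1, the inducible haem oxygenase, was chosen after its values were seen. It read 8.70, 8.44 and 8.78 in controls against 7.89, 8.45 and 8.14 in mutants, and its difference of -0.48 ± 0.15 did not pass (adjusted p = 0.0962).

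Of the 4 further export genes, the copper pumps split. Atp7b, which loads ceruloplasmin with copper, was at -0.43 ± 0.08 and Atp7a at 0.27 ± 0.06 (adjusted p 0.0199 and 0.0309). App, which can bind and stabilise ferroportin, was at -0.32 ± 0.06 (adjusted p = 0.0161). Atp7b did not pass without control 2 or control 3 (adjusted p up to 0.076), App without control 1, control 2 or control 3 (up to 0.0839), and Atp7a without any array except mutant 2 (up to 0.13).

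Genes that set hepcidin were largely uncalled, with 1 of 23 higher, 0 lower and 22 that did not pass (5 higher and 0 lower at an unadjusted p under 0.05). Furin, a protease that processes hepcidin and many other proteins, was at 0.28 ± 0.07 (adjusted p = 0.0436), and its call ended with each array other than mutant 2 left out (adjusted p up to 0.175). Bmp2 (0.32) and Bmp6 (-0.15), ligands that induce hepcidin in liver, did not pass (adjusted p 0.0752 and 0.576). Hamp2, the further hepcidin gene of the list, lay above the level of genes taken as silent, unlike Hamp. It read 6.65 ± 0.20 (SD, n = 3) in controls and 6.58 ± 0.26 in mutants and did not pass (adjusted p = 0.846).

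In the list of iron regulatory proteins and their targets, 1 of 10 rose, 1 fell and 8 did not pass. Aco1, the other iron regulatory protein, was at -0.08 ± 0.07 and Fbxl5, which marks Ireb2 for breakdown, at 0.14 ± 0.08 (adjusted p 0.567 and 0.449). Cdc14a, a phosphatase with an iron responsive element in 1 form of its message, rose by 0.38 ± 0.06 (adjusted p = 0.00955, and 0.0562 without control 3), and Alas2 was the gene that fell.

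Several marker lists were set beside the Trf difference, since liver, Schwann cells and other tissues can make transferrin. Of 13 liver genes measured, 1 rose, 1 fell and 11 did not pass. Albumin (Alb), the defining liver product, read 5.38, 5.72 and 5.72 in controls against 5.24, 5.15 and 5.30 in mutants, below the 95th percentile of genes taken as silent. No mutant lay above any control, but the difference of -0.38 did not pass (adjusted p = 0.0617). Transthyretin (Ttr) and Ahsg, also liver products, lay below that mark in both groups, as did 8 of the 13 genes. Apoa1 lay above the mark and was higher in every mutant than in any control (0.35, adjusted p = 0.0883). In this list 2 genes lay wholly higher in mutants and 3 wholly lower, against 13.4% and 12.6% of all genes. The fibrinogen gene Fgg was higher, from 5.08 ± 0.02 (SD, n = 3) to 5.79 ± 0.25 (adjusted p = 0.00821), and Afp was lower (-0.28 ± 0.06, adjusted p = 0.0303, and up to 0.127 with control 1, control 2, control 3 or mutant 3 left out). The liver list median lay between -0.02 and -0.004 in controls and at 0.04, -0.09 and -0.05 in mutants.

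**Figure D4:**
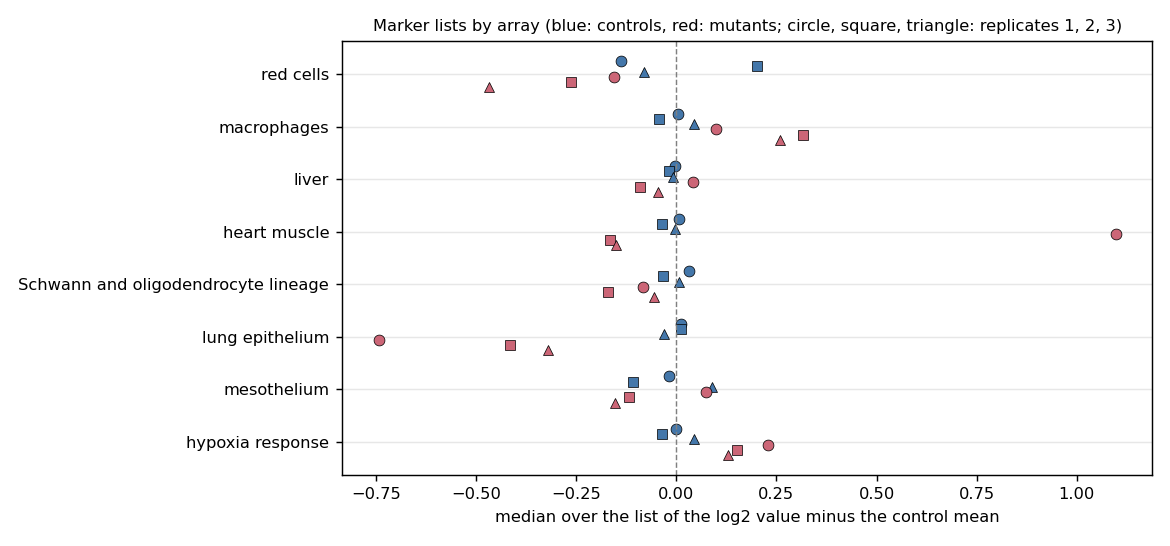
Median over each marker list of the log2 value minus the control mean, for each of 3 control (blue) and 3 mutant (red) lungs. The liver median lies between -0.09 and 0.04 in mutants, the epithelial median between -0.74 and -0.32, and the medians of macrophage and hypoxia response genes lie above 0 in each mutant, although 3 of 13 and 3 of 14 of their genes were called. Mutant 1 stands apart in heart muscle at 1.10.

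Sox10, the defining factor of Schwann cell precursors, was at -0.02 ± 0.09 (adjusted p = 0.951), and in its list 1 of 8 genes rose, 1 fell and 6 did not pass. Fabp7 (0.56) rose and Erbb3 (-0.57) fell, and leaving out control 1, control 2 or mutant 3 ended the call of Fabp7 (adjusted p up to 0.109), leaving out any array but mutant 3 that of Erbb3 (up to 0.145). The mesothelial list had 1 rise among 7 genes, that of Lrrn4 (0.67), whose call ended when control 1 or control 2 was left out (adjusted p 0.0725 and 0.0696). Macrophages recycle iron and carry ferroportin. In their list 3 of 13 genes rose, 0 fell and 10 did not pass (8 higher and 1 lower at an unadjusted p under 0.05), with medians of 0.10, 0.32 and 0.26 in mutants and between -0.04 and 0.04 in controls. Adgre1 (0.49), Csf1r (0.43) and Cx3cr1 (0.39) rose, and each lost its call without control 1 or control 2 (adjusted p up to 0.0937, 0.0954 and 0.162). Adgre1 also lost it without control 3 or mutant 3, and Cx3cr1 without control 3 or mutant 1. Slc40a1 and the macrophage median were both lowest among the mutants in mutant 1. There the median (0.10) still lay above every control, whereas Slc40a1 (7.91) lay below every control. The part of macrophages in these values was not tested.

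Trf and Tfrc are known targets of the hypoxia-inducible factors, which bind a core written ACGTG. Of 14 hypoxia response genes 3 rose, 0 fell and 11 did not pass, with list medians of 0.23, 0.15 and 0.13 in mutants and between -0.04 and 0.04 in controls (6 higher and 0 lower at an unadjusted p under 0.05). Bnip3, a mitophagy gene (0.76 ± 0.07, adjusted p = 0.000432), and Pdk1, which holds pyruvate back from mitochondria (0.41 ± 0.07, adjusted p = 0.00872), rose with every array left out in turn. With the features of each gene averaged, the difference of Bnip3 was smaller, at 0.64 (adjusted p = 0.00145). Ldha (0.22) lost its call with each array other than mutant 2 left out (adjusted p up to 0.155). Vegfa (-0.12) and Car9 (-0.24) did not pass (adjusted p 0.421 and 0.312), and Car9 lay near the level of silent genes in both groups. The stretch of the Tfrc promoter that holds the core is shown because this receptor gene was not called higher with Bnip3 or with its ligand:
Tfrc: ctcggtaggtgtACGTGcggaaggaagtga
It lies at chr16:32608882-32608911 on the plus strand of GRCm38.p6 (RefSeq), with the core in capitals. The core lies in both promoter windows of the gene, spans 1 annotated start and lies 228 bases before the other. The core was also found in 2 of the 3 windows of Tfr2. On either strand, 19.6% of 32851 RefSeq promoter windows of 300 bases hold these letters, so the match is a description only. Windows were found for 6 of the 10 genes (Cp, Tfr2, Hamp, Ireb2, Tfrc and Fth1). None of their 11 windows held the forkhead motif TGTTTAC on either strand, which 3.65% of all windows hold.

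The chromosomal neighbours of Trf were compared to see whether the difference extended along the chromosome. Of the 4 nearest protein-coding genes on each side, 8 were measured and 1 was called. The genes next to Trf, Srprb (-0.03) and 1300017J02Rik (-0.02), overlapped between the groups (adjusted p 0.919 and 0.901). Rab6b, a transport GTPase that lies beyond Srprb, rose from 7.02 ± 0.09 (SD, n = 3) to 7.69 ± 0.14, by 0.68 ± 0.09 (SE, adjusted p = 0.0027).

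Genes whose profile over the 6 arrays lay nearest to that of Trf were found by the root mean square difference of the mean-centred log2 values. The nearest were Fst, which encodes follistatin (0.49), the apelin receptor ligand Apela (0.52), the developmental gene Mab21l2 (0.60), the carboxypeptidase Cpn1 (0.64) and the cell adhesion gene Emb (0.66). The 10 members were left out of this search, and the 5 genes ranked 3, 2, 5, 6 and 7 by rise over all genes tested. None is in the wider iron lists. The largest rise there was that of Lrp2 (0.76), so none of those genes could lie near Trf, and their absence shows nothing more about iron handling. The measure is led by the gap between the groups, and within the mutants the order differed: Trf was lowest in mutant 2, where 4 of the 5 (Apela, Mab21l2, Cpn1 and Emb) were highest.

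**Figure D5:**
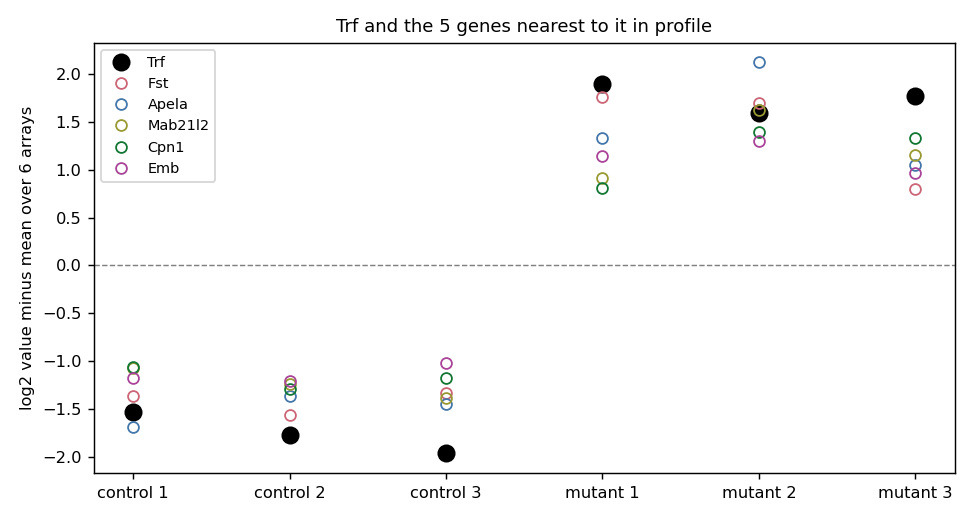
Log2 values of Trf (filled) and the 5 genes nearest to it (open), each minus its mean over the 6 arrays. Trf is highest in mutant 1 and lowest in mutant 2 of the mutants, whereas Apela, Mab21l2, Cpn1 and Emb peak in mutant 2.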

How the data were processed

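The authors deposited log2 values, 1 per feature and array, per the submitters' processing notes made with oligo and the robust multi-array average (RMA), which subtracts background, normalizes between arrays and summarises probes; its settings and versions: not given in the sources used here. RMA compresses the differences of dim genes. The annotation of the platform gives 1 symbol for 21797 features, and a gene with several features was read from the one with the highest mean, which left 19946 genes. Mutant and control lungs were compared by limma (version 3.58.1, R 4.3.3; lmFit, then eBayes; genotype as the only term, two-sided), adjusted by Benjamini-Hochberg over all genes at 0.05. The number of arrays, 3 per group, limits the precision. Array medians lay between 6.70 and 6.79.

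The members and lists were chosen with earlier results of these data known. The genes named are the 10 members, up to 4 called genes per list by size of difference (where a list had 0 calls, the 2 of smallest p), the 5 nearest to Trf, its adjacent and called neighbours and the targeted genes. Epcam, Hmox1, Ftl1, Aco1, Fbxl5, Bmp2, Bmp6, Slc39a14, Steap3, Ltf, Meltf and the uncalled or further called members of the lists were named after their values were seen. Alternatives were a second quantile normalization, median centring, a filter on dim genes, averaging features, testing all features, trend with robust moderation, array weights (statmod 1.5.0), the replicate number as a block, a heart muscle covariate and each array left out.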

Additional observations from a re-analysis of the deposited data

How the results depend on the processing

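The Trf difference kept its direction and stayed within the replicate spread of its value under all 15 alternatives (3.41 to 3.62 with single arrays left out), and 0 of the other 9 genes were higher under any of them. The count of lower genes among the 9, 1 as reported, was 0 when all features were tested and 2 with array weights and with the replicate block, and ran from 0 to 1 with single arrays left out. Testing all features left each difference as it was, while the moderation and the adjustment ran over 35556 features. The separate parts of moderation and adjustment were not tested. In that fit the counts among the wider iron genes were 2 higher and 6 lower, and 828 of the 19946 genes changed. With single arrays left out, these counts ran from 1 to 4, from 5 to 13 and from 774 to 1745, so few arrays limit every call near the threshold. Whether the replicate numbers pair the samples is not given by the labels. Correlations of deviations were -0.0686, 0.049 and 0.154 for numbers 1 to 3 and ran from -0.151 to 0.079 for unequal numbers. Deviations from means of 3 arrays are not independent, so these values cannot decide it. With the number as a block, Tfrc passed (adjusted p = 0.0466), 2 wider iron genes were higher in place of 4, and Cybrd1, App, Atp7a and Furin no longer passed (adjusted p 0.0684, 0.0575, 0.0796 and 0.0995). No alternative reversed a called difference. The dim filter leaves out Tfr2, Cp and Hamp, which have no value under it.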
